A study of Mus musculus with 24 samples.

Results

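LIM homeobox genes encode transcription factors that pair a homeodomain, which binds DNA, with LIM zinc-finger domains, which bind protein partners. The family was described here around Lhx1, with Lhx2, Lhx3, Lhx4, Lhx5, Lhx9, Lmx1a and Lmx1b, in mouse otocyst epithelium, from which the inner ear forms. The 8 genes were chosen by name, because Lhx1 was higher in transgenic pools of these same data. Of the 8, 4 could be measured among the 15736 genes of the count table: Lhx1, Lhx2, Lmx1a and Lmx1b. Lhx3, Lhx4, Lhx5 and Lhx9 were not analysed here. The values that chose the family are those of the transgenic against control comparison, so that comparison is given for the members as a description, and tests are given for genes and contrasts outside that choice.

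All embryos carried the doxycycline-dependent activator Rosa26rtTA/+. Control pools (con) carried nothing else, and R2b pools also carried Tg(tetO-s(dn)Fgfr2b)/+, a transgene for a secreted dominant-negative form of the receptor FGFR2b, which binds FGF ligands outside the cell. Rosa26 is active in most cell types, so the transgene was not restricted to the otocyst. Doxycycline was given to pregnant females as an injection of 1.5 mg/kg followed by chow at 200 mg/kg. Exposure ran for 12 hours starting at E9.75, in days of embryonic development (E9.75+12h), 24 hours starting at E9.25 (E9.25+24h), or 24 hours starting at E10.25 (E10.25+24h). The embryos were collected at E10.25, E10.25 and E11.25 respectively. Each library was a pool of otocyst epithelia of 1 genotype from 1 female, so con and R2b pools came paired by litter. Counts were analysed for 3 litters at E9.75+12h and for 4 litters in both other exposures (22 libraries), with totals of 18.7 to 28.2 M counts. The reported fits compare group means without a litter term, so their P-values measure the spread between pools of different litters. Fits with litter as a block are given as alternatives.

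LIM homeodomain proteins act in complexes with the LIM domain-binding proteins Ldb1 and Ldb2, which Ssbp proteins stabilise and for which the LIM-only proteins Lmo1 to Lmo4 compete. Lhx1 acts in the head organiser, the embryonic kidney and neurons. Lmx1a is a known regulator of otic patterning, and its loss disturbs the formation of the endolymphatic duct and the separation of inner ear sensory organs. Lmx1b is known from dorsal limb mesenchyme, the eye and the midbrain and hindbrain, and Lhx2 from the eye, forebrain, limb mesenchyme and hair follicles. FGF signalling through FGFR2b acts on otic epithelium during its early patterning.

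The pools were checked against marker genes. All 10 otic epithelial markers (Pax2, Pax8, Oc90, Dlx5, Gbx2, Hmx2, Hmx3, Sox10, Epcam and Cdh1) were in the table, and their summed level was 1541 to 7422 CPM (counts scaled to library size) over the 22 libraries. The 8 mesenchyme markers summed to 73.0 to 815 CPM and the 8 endothelial markers to 15.0 to 258 CPM. The 8 blood markers summed to 9.61 to 5015 CPM, highest in the E10.25+24h library labelled R2b of litter 3. In the E9.25+24h con pool of litter 4 they reached 1598 CPM, beside 1541 CPM of otic epithelial markers. The pools were thus not purely epithelial. Of 12 hindbrain neural tube markers only Nkx6-1 could be analysed, at 0 to 5.57 CPM. The transgene reads, counted under Fgfr2 and under Ighg1, an immunoglobulin heavy chain gene, separated con from R2b at the first pair of exposures. At E9.75+12h Fgfr2 had 153 ± 6.26 CPM in con against 1139 ± 412 CPM in R2b (SD, n = 3 each). At E9.25+24h it had 141 ± 11.6 against 1559 ± 252 CPM (SD, n = 4 each). At E10.25+24h the reads went against some labels. Ighg1 in the libraries labelled con was 703, 1.45, 206 and 0.758 CPM in litters 1 to 4, and in the libraries labelled R2b it was 56.3, 1186, 845 and 859 CPM. Litter 1 was thus reversed and the litter 3 library labelled con also held transgene reads, so R2b against con at E10.25+24h is given with and without litter 1.

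The 4 measured members differed widely in level. Levels were compared between genes as CPM per kb of annotated exon in the 11 con libraries. Lmx1a was highest, with a median of 108 and a range of 74.8 to 152 CPM per kb. Lmx1b had a median of 1.93 (0.761 to 4.19), Lhx1 of 0.957 (0.670 to 2.05) and Lhx2 of 0.597 (0.0711 to 2.27) CPM per kb. Lmx1a stood apart from the others in every con library, whereas the ranges of Lmx1b, Lhx1 and Lhx2 overlapped. In R2b pools at E9.25+24h, Lhx1 was at 5.0 ± 0.687 and Lmx1b at 2.31 ± 1.60 CPM per kb (SD, n = 4 each), with ranges that overlapped (4.12 to 5.74 against 1.20 to 4.68).

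Lhx1 (ENSMUSG00000018698) lies on the minus strand of chromosome 11 at 84518284 to 84525535 in GRCm38, and spans 7252 bases. The divergent noncoding gene Lhx1os starts 126 bases before the RefSeq start of Lhx1 on the opposite strand, so the 250 bases before that start hold both beginnings. That window, from RefSeq at chr11:84525535-84525784 (GRCm38.p6, minus strand), and the corresponding window of Lmx1b, at chr2:33641099-33641348 (minus strand), are shown because each holds the start of a noncoding gene whose level is given with that of the member. Capitals mark the letters CCAAT or their reverse complement ATTGG.
Lhx1: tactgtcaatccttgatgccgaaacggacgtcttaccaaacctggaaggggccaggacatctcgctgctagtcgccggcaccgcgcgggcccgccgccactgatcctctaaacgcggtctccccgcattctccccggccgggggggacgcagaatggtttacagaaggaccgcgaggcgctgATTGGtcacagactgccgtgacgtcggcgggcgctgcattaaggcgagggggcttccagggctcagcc
Lmx1b: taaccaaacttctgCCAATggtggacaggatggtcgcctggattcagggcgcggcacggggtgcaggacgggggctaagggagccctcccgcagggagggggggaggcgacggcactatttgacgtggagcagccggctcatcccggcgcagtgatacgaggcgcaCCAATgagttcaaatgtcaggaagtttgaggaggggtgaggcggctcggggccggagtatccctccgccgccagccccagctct

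The window of Lhx1 held 1 such match and that of Lmx1b held 2, and 33.8% of 32851 RefSeq windows of this length held at least 1. Neither window held CCGGAA, 1 form of the ETS core (12% of windows, both strands), or TAATTA, a homeodomain core (4.84%). Other forms of the ETS core were not searched. These matches describe the letters only.

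Lhx1 was the member with the largest difference between R2b and con. At E9.75+12h it was at 4.74, 5.68 and 3.64 CPM in the con pools of litters 1 to 3 (69 to 104 counts) and at 17.5, 21.6 and 14.4 CPM in the R2b pools (279 to 551 counts). Every R2b pool was above every con pool, and the ratio within litters was 3.69 to 3.96. The fitted log2 fold change was 1.93 (SE 0.21), the 28th highest of 14882 genes tested. At E9.25+24h, Lhx1 was at 2.73, 4.27, 3.08 and 2.76 CPM in the con pools and at 19.8, 21.4, 23.4 and 16.8 CPM in the R2b pools. The groups were again separate, with within-litter ratios of 5.02 to 7.59 and a fitted log2 fold change of 2.66 (SE 0.17), the 8th highest of 14979 genes. In a pool, more cells that hold Lhx1 RNA and more Lhx1 RNA per cell cannot be told apart.

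At E10.25+24h, Lhx1 was at 8.34, 3.90, 3.91 and 3.55 CPM under the con label and at 3.74, 17.4, 5.78 and 8.07 CPM under the R2b label. The groups overlapped: Lhx1 was higher in the library labelled R2b in litters 2, 3 and 4 and lower in litter 1. The fitted log2 fold change was 0.82 (SE 0.48) with all litters and 1.46 (SE 0.39) without litter 1. Without litters 1 and 3 it was 1.78 (SE 0.40). In litter 1, the library with more transgene reads, labelled con, also held more Lhx1. The litter 3 library labelled con, with 206 CPM of Ighg1, held 3.91 CPM of Lhx1, beside 3.90 CPM in that of litter 2 with 1.45 CPM of Ighg1. These values are a description, since Lhx1 was chosen for its rise in transgenic pools. The libraries with 703, 845, 859 and 1186 CPM of Ighg1 held 8.34, 5.78, 8.07 and 17.4 CPM of Lhx1, and the libraries with 0.758 to 206 CPM of Ighg1 held 3.55 to 3.91 CPM.

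Lmx1a (ENSMUSG00000026686, chromosome 1, 167689237 to 167848741, plus strand, GRCm38) was also higher in R2b pools, by a smaller ratio from a higher level. At E9.75+12h it was at 368, 371 and 355 CPM in con and at 539, 485 and 553 CPM in R2b, with a log2 fold change of 0.53 (SE 0.09). After E9.25+24h it stood at 395, 397, 377 and 254 CPM in con and at 591, 616, 525 and 421 CPM in R2b, with a log2 fold change of 0.60 (SE 0.16). Every R2b pool was above every con pool at both exposures. In litter 4 both pools were the lowest of their group, and the ratio within that litter was 1.66, the highest of the 4. At E10.25+24h, Lmx1a was at 515, 349, 319 and 359 CPM under the con label and at 342, 562, 420 and 457 CPM under the R2b label. Here too litter 1 was the exception, and the log2 fold change was 0.21 (SE 0.18) with it and 0.49 (SE 0.11) without it.

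Of the 4 members, 2 (Lhx1 and Lmx1a) had a Benjamini-Hochberg adjusted p (FDR) under 0.05 in edgeR's quasi-likelihood test over all genes at E9.75+12h, where 20.0% of genes tested did (9.78% lower in R2b), and their groups did not overlap, as in 38.9% of genes (19.8% with R2b higher). The same 2 did at E9.25+24h, where 15.6% of genes did (9.09% higher and 6.50% lower) and 22.4% had groups that did not overlap (12.2% with R2b higher). Nothing is read from these counts or the others in this paragraph, since the comparison chose the family. The median log2 fold change of the 4 members was 0.42 and 0.37, beside 0.01 and -0.01 over all genes. The count of 2 was 1 at E9.75+12h without litter 1, and at E9.25+24h without litter 1, 2 or 3 or without either library of those litters. With litter as a block it was 2 at E9.75+12h (11.9% of genes), 1 there without litter 1 or 3, and 3 at E9.25+24h (40.6% of genes). At E10.25+24h, 0 of 4 members passed in edgeR or DESeq2, beside 0% of genes tested, 175 of which had an unadjusted p under 0.05. With litter as a block and without litter 1 the count there was 2, beside 4.04% of genes, with fitted values of 0.48 (SE 0.07) for Lmx1a and -1.19 (SE 0.23) for Lhx2. The effect of R2b at E10.25+24h minus that at E9.25+24h was -1.84 (SE 0.50) for Lhx1, and -1.22 (SE 0.40) without litter 1 of E10.25+24h. No member passed a test of such differences between exposures in edgeR, beside 0% of genes for E9.25+24h against E9.75+12h (1908 of 15688 genes at an unadjusted p under 0.05), 0% for E10.25+24h against E9.25+24h (1344 genes) and 3.96% for E10.25+24h against E9.75+12h.

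**Figure D1:**
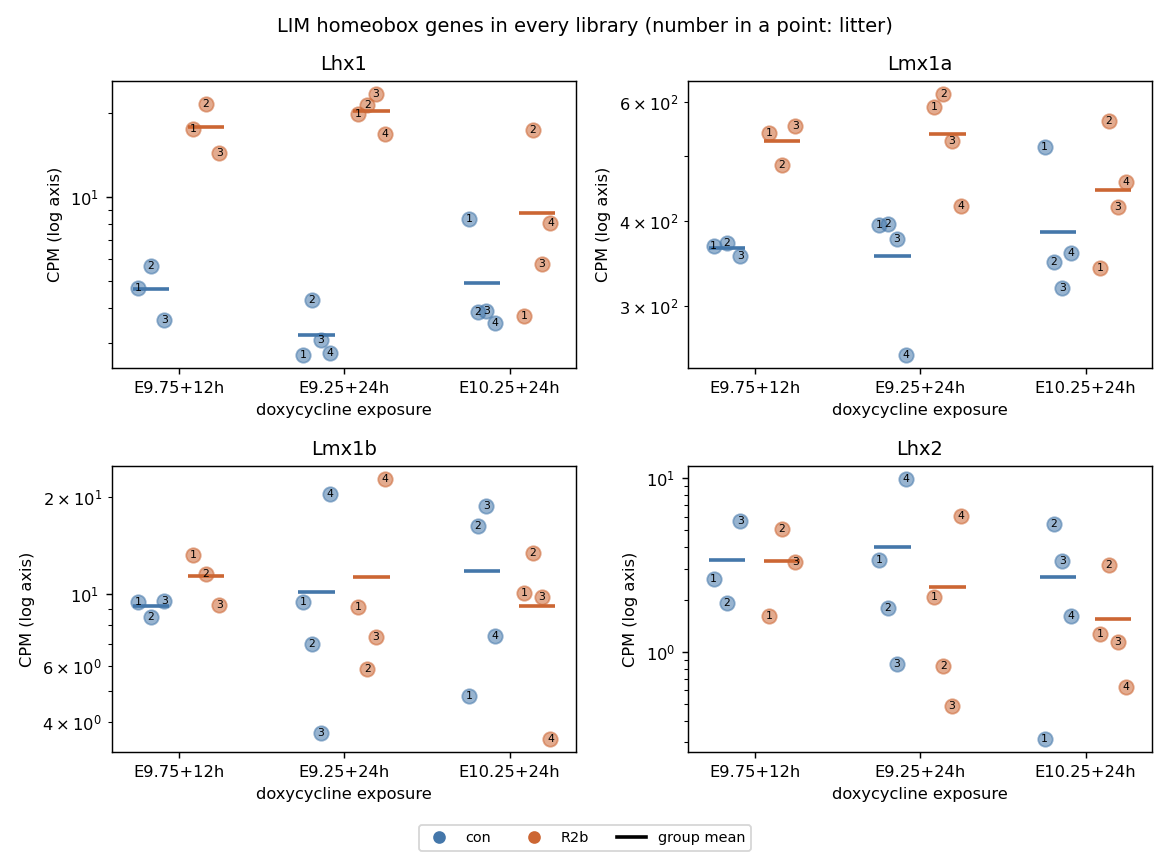
Levels of the 4 measured LIM homeobox genes in each of 22 libraries, in CPM on a log axis, by doxycycline exposure. Points are pools, numbered by litter and coloured by labelled genotype, and lines are group means. Lhx1 and Lmx1a separate R2b from con at E9.75+12h and E9.25+24h, and litter 1 is reversed at E10.25+24h, whereas Lmx1b and Lhx2 overlap in every exposure.

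**Figure D2:**
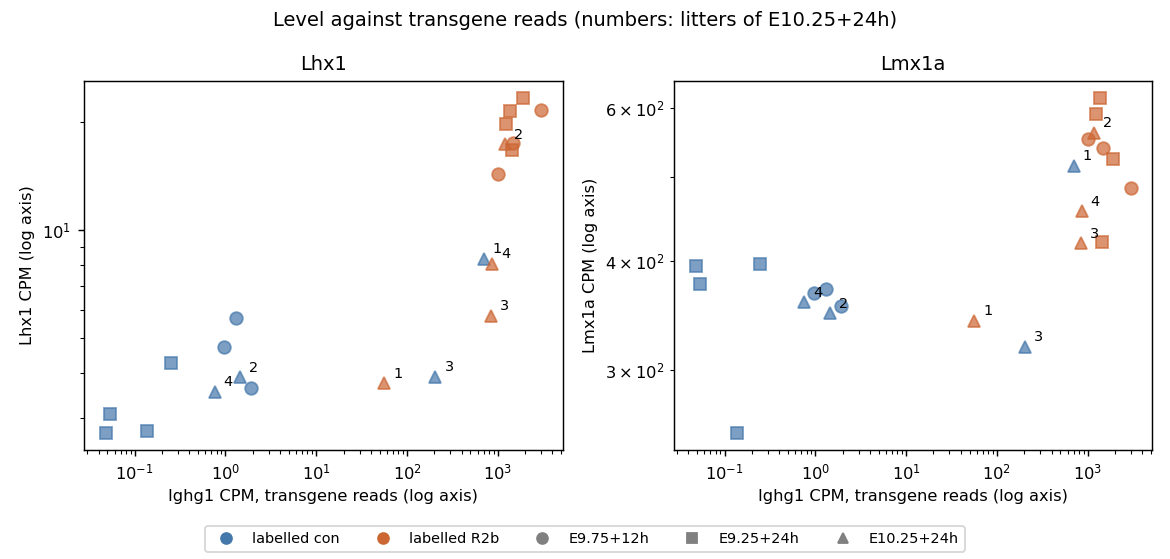
Lhx1 and Lmx1a against Ighg1, which counts transgene reads, in CPM on log axes, with 1 point per library. At E10.25+24h the library labelled con of litter 1 (703 CPM of Ighg1, 8.34 CPM of Lhx1) sits with the libraries labelled R2b, and the library labelled R2b of litter 1 (56.3 and 3.74 CPM) sits lower.

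Lhx1os, annotated as a long intergenic noncoding RNA, was selected for its position after the data were seen. It had 2 to 6 counts in con pools and 13 to 31 counts in R2b pools at E9.75+12h, and 5 to 11 against 26 to 50 counts at E9.25+24h. In edgeR it rose by 2.32 on the log2 scale (SE 0.52, FDR 0.0112, higher in 3 of 3 litters) and by 2.30 (SE 0.32, FDR 0.00336, higher in 4 of 4 litters). At E10.25+24h the difference was 0.65 (SE 0.53, FDR 0.9999), and 1.42 (SE 0.49, FDR 0.238) without litter 1. At E9.75+12h the FDR was 0.095 without litter 1 and 0.0681 without its R2b pool, and it ranged from 0.00668 to 0.166 over the alternatives. The libraries were prepared with a stranded kit, but how strand was used in counting is not given in the sources used here. In GENCODE, Lhx1 and Lhx1os do not overlap, with 125 bases between their starts. Whether reads were shared between them was not tested.

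The other nearest genes in the table did not rise with Lhx1. Aatf, an apoptosis-antagonising nuclear factor encoded 4.76 kb from Lhx1, differed at E9.75+12h by -0.34 (SE 0.13, FDR 0.0771) and at E9.25+24h by 0.01 (SE 0.08, FDR 0.924). Acaca, Mrm1 and Dhrs11 did not pass in either exposure, and Tada2a fell by 0.44 at E9.75+12h (SE 0.10, FDR 0.0123). Near Lmx1a, the retinoid receptor gene Rxrg, 49.6 kb away, rose at E9.75+12h by 1.0 (SE 0.11, FDR 5.57e-04) and at E9.25+24h by 0.85 (SE 0.18, FDR 0.0167). Its FDR at E9.25+24h was 0.0513 without litter 1, 0.0848 without litter 2, and 0.0543 or 0.0539 without the R2b pool of either. Mgst3 and Aldh9a1, the next genes from Lmx1a at lower coordinates, did not pass in either exposure. Its neighbours at higher coordinates are not given here.

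**Figure D3:**
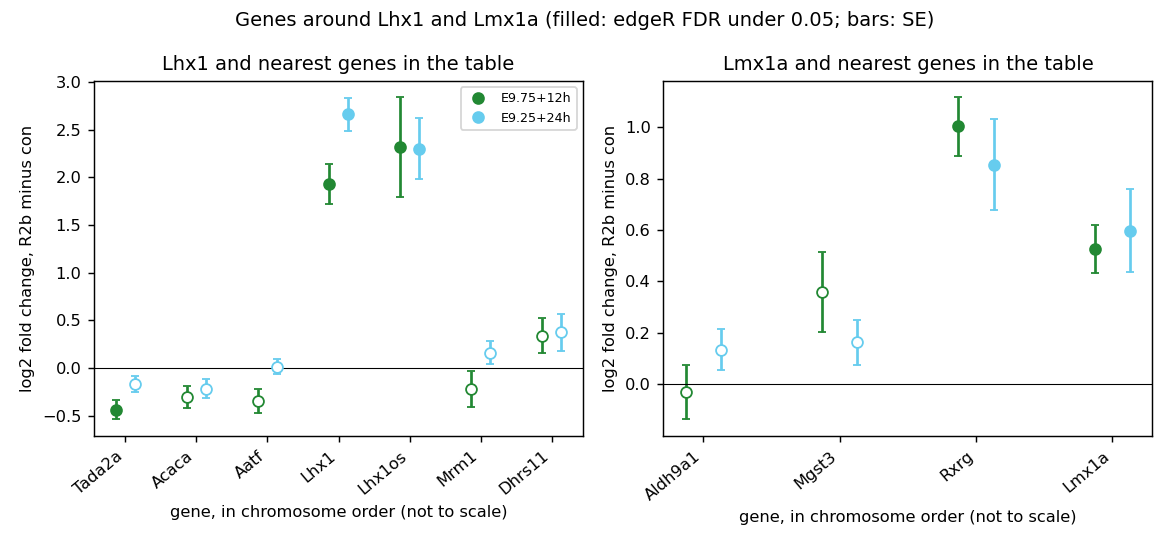
Fitted log2 fold changes of R2b against con, with SE, for Lhx1 with the 3 nearest genes in the table on either side and Lmx1a with the 3 nearest at lower coordinates, in chromosome order, at E9.75+12h and E9.25+24h. Filled points had an edgeR FDR under 0.05. Lhx1 and Lhx1os stand above 1.9 on the log2 scale, and their other neighbours lie below 0.4.

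Markers of other cells were read beside Lhx1 and Lmx1a. The summed otic epithelial markers at E9.75+12h were 2675 to 2947 CPM in con against 3057 to 4075 CPM in R2b. Of the 10, 5 rose and 1 fell, beside 20.0% of all genes called in either direction (9.78% lower in R2b). At E9.25+24h the otic sums were 1541 to 2862 against 2502 to 4416 CPM, and 2 markers rose and 2 fell, beside 15.6% of all genes. The 8 otic neuroblast markers that could be analysed, of 9, summed at E9.75+12h to 199 to 234 CPM in con against 320 to 373 CPM in R2b, and 4 rose, beside 20.0% of all genes called in either direction. The part of these lists in the difference of Lhx1 and Lmx1a at E9.75+12h was not tested. At E9.25+24h the neuroblast sums overlapped (117 to 306 CPM in con, 157 to 161 CPM in R2b) and 0 of 8 passed in edgeR. Their part in the difference of Lhx1 there was not tested either. Nkx6-1, the hindbrain marker, ranged at E9.25+24h from 0 to 1.20 CPM in con and from 0.146 to 2.0 CPM in R2b.

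Lmx1b (ENSMUSG00000038765, chromosome 2, 33560965 to 33640511, minus strand, GRCm38) showed no separation by genotype. At E9.75+12h it was at 9.43, 8.52 and 9.54 CPM in con and at 13.3, 11.5 and 9.28 CPM in R2b, with a log2 fold change of 0.31 (SE 0.17). After E9.25+24h it stood at 9.48, 7.0, 3.72 and 20.5 CPM in con and at 9.14, 5.85, 7.34 and 22.8 CPM in R2b, with a log2 fold change of 0.15 (SE 0.56). Litter 4 was the highest in both genotypes. At E10.25+24h it was at 4.82, 16.3, 18.7 and 7.39 CPM under the con label and at 10.1, 13.4, 9.82 and 3.54 CPM under the R2b label. The log2 fold change there was -0.36 (SE 0.48), and -0.66 (SE 0.50) without litter 1. Its divergent neighbour C130021I20Rik, an antisense transcript selected after the data were seen, starts 95 bases before the RefSeq start of Lmx1b, inside the window printed above. In GENCODE the starts of the pair are 682 bases apart. C130021I20Rik ranged from 1.96 to 17.7 CPM over the libraries. Its log2 CPM, centred on each group mean, had r = 0.97 with that of Lmx1b over the 22 libraries, the highest of 12806 genes. C130021I20Rik did not pass between R2b and con (log2 fold changes of 0.55, SE 0.22, FDR 0.0964 at E9.75+12h and 0.51, SE 0.60, FDR 0.606 at E9.25+24h).

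Lhx2 (ENSMUSG00000000247, chromosome 2, 38339281 to 38369733, plus strand, GRCm38) had the lowest median per kb in con pools, and its coefficient of variation within groups was 52.1% to 108%. At E9.75+12h it was at 2.62, 1.91 and 5.64 CPM in con and at 1.61, 5.09 and 3.30 CPM in R2b, which overlapped (log2 fold change -0.02, SE 0.45). After E9.25+24h it stood at 3.40, 1.79, 0.849 and 9.95 CPM in con and at 2.07, 0.828, 0.490 and 6.06 CPM in R2b. The groups overlapped because litters differed more than genotypes, yet Lhx2 was lower in the R2b pool of 4 of 4 litters, at 0.463 to 0.610 of its con pool. The log2 fold change was -0.76 (SE 0.87) without a block and -0.79 (SE 0.16) with litter as a block. The summed mesenchyme markers of litters 1 to 4 were 204, 118, 73.0 and 815 CPM in con and 257, 111, 78.9 and 759 CPM in R2b, lower in R2b in litters 2 and 4. Endothelial markers summed to 47.3, 26.1, 15.4 and 258 CPM in con and to 40.3, 27.3, 15.0 and 119 CPM in R2b, lower in R2b in litters 1, 3 and 4. Blood markers summed to 239, 154, 9.61 and 1598 CPM in con and to 248, 132, 12.6 and 625 CPM in R2b, lower in R2b in litters 2 and 4. The median log2 fold change was 0.01 over the 8 mesenchyme, -0.87 over the 8 endothelial and -0.96 over the 7 tested blood markers. Their part in the difference of Lhx2 was not tested. At E10.25+24h Lhx2 was at 0.312, 5.45, 3.35 and 1.61 CPM under the con label and at 1.27, 3.15, 1.14 and 0.628 CPM under the R2b label. The log2 fold change was -0.80 (SE 0.73), and -1.08 (SE 0.64) without litter 1, where all 3 remaining litters were lower in R2b.

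Across libraries Lhx1 went with Lmx1a, and Lhx2 with Lmx1b. The following correlations are descriptions over 22 libraries that share litters and exposures, on log2 CPM (prior count 2). Centred on each exposure, Lhx1 and Lmx1a had r = 0.87 (rho = 0.79), and Lhx1 and Fgfr2 had r = 0.97 (rho = 0.95). This scale keeps the difference between R2b and con, which chose the family. Centring on each group mean removed only the mean difference between labels. On that scale r was 0.71 (rho = 0.58) for Lhx1 with Lmx1a and 0.80 (rho = 0.63) for Lhx1 with Fgfr2. Lhx1 with Ighg1 had r = 0.58, and 0.45 without the 2 libraries farthest from the median of Ighg1. Where labels went against transgene reads, group centring keeps transgene differences within a label. These values for Lhx1 are thus not free of the difference that chose the family. For Lhx1 with Lmx1a, r was 0.58 without the 2 libraries farthest from the median of Lhx1. It was 0.70 without the 2 farthest from that of Lmx1a. For Lhx1 with Fgfr2 it was 0.64 without the 2 farthest from the median of Fgfr2. Lhx2 and Lmx1b had r = 0.86 (rho = 0.81) on the group-centred scale. It was 0.85 without the 2 libraries farthest from the median of Lmx1b, and 0.81 without those farthest from that of Lhx2. Lhx1 with Lhx2 and Lhx1 with Lmx1b had r = -0.29 and -0.004 on the exposure-centred scale.

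Lhx2 and Lmx1b also moved with markers of mesenchyme and endothelium and, less closely, of blood. On the group-centred scale, r with the summed mesenchyme markers was 0.87 for Lhx2 and 0.84 for Lmx1b, against -0.25 for Lhx1 and -0.58 for Lmx1a. With endothelial markers it was 0.83 for Lhx2 and 0.78 for Lmx1b, and with blood markers 0.66 and 0.65. Litter 4 of E9.25+24h had the highest mesenchyme sums of all (815 CPM in con and 759 CPM in R2b), the highest Lmx1b (20.5 and 22.8 CPM) and the highest Lhx2 (9.95 and 6.06 CPM). The genes most like Lhx2 on this scale were Alx4 (r = 0.92), Tbx15 (0.92) and Snai2 (0.91), and Alx4 (0.92) came next after C130021I20Rik for Lmx1b. These are transcription factor genes known from mesenchyme, and they were singled out after their values were seen. The part of mesenchyme, endothelium or blood in the levels of Lhx2 and Lmx1b was not tested.

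**Figure D4:**
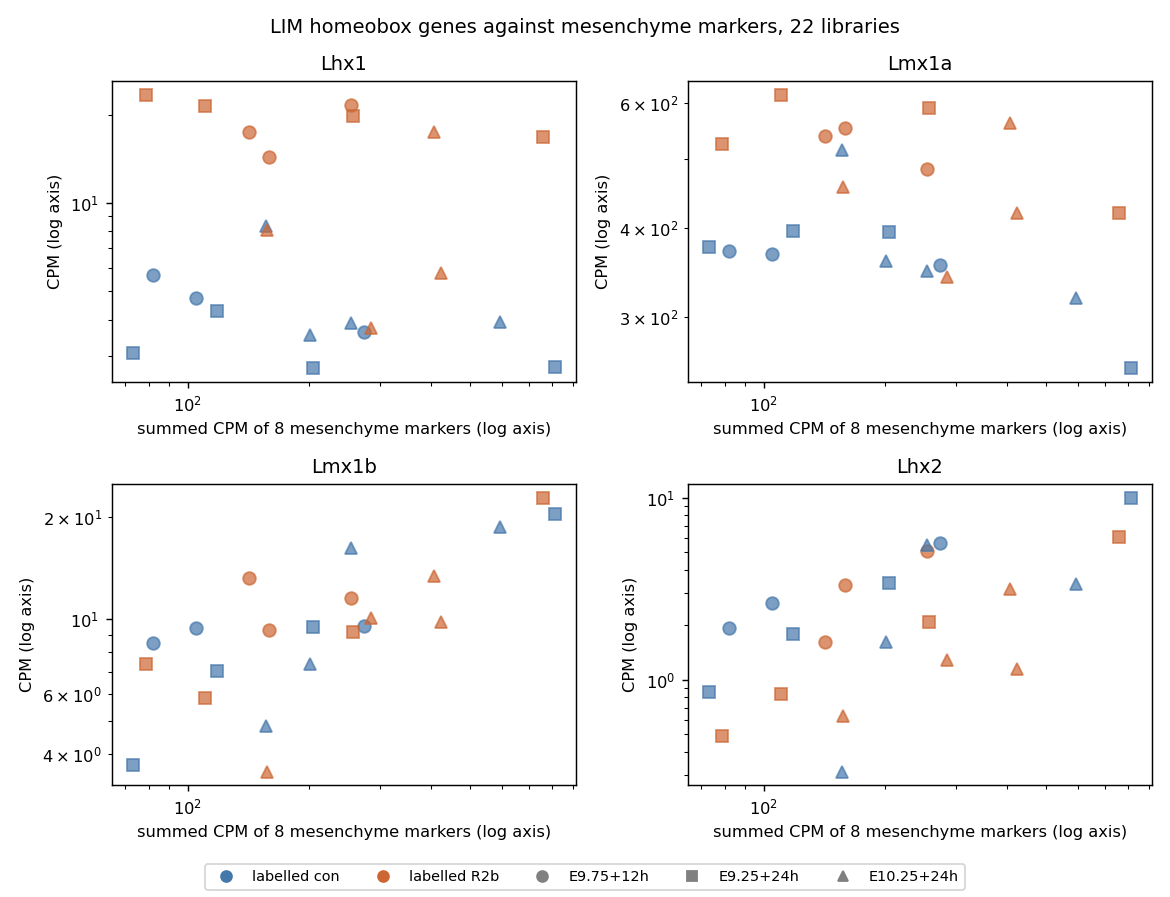
Levels of the 4 members against the summed CPM of 8 mesenchyme markers, log axes, with 1 point per library (colour, labelled genotype; shape, exposure). Lmx1b and Lhx2 are highest in the libraries with the highest sums (759 and 815 CPM), whereas Lhx1 separates by genotype at E9.75+12h and E9.25+24h, in libraries with low and high sums alike.

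The genes whose pattern was most like that of Lhx1 were found among 12806 genes with a mean log2 CPM of at least 1, on the exposure-centred scale over 22 libraries. The 5 highest were Pdgfrl (r = 0.97), Fgfr2 (0.97), Lhfp (0.96), Afap1l2 (0.96) and Ccdc80 (0.96). Ccdc80, which encodes an extracellular matrix protein, had log2 fold changes of 1.22 at E9.75+12h (SE 0.12) and 1.93 at E9.25+24h (SE 0.13). The 5 lowest were Dapk2 (r = -0.95), Spred3 (-0.94), Tspan15 (-0.94), Mfsd2a (-0.94) and 1110032F04Rik (-0.94). Spred3, of a family of inhibitors of RAS and MAP kinase signalling, had -2.13 (SE 0.31) and -2.25 (SE 0.14). These are given with no test, since the exposure-centred scale that chose both genes keeps the difference between R2b and con. After centring on group means, the 5 highest were Brip1 (0.87), Lbh (0.86), Bdnf (0.86), Col11a1 (0.85) and Arl4c (0.85). Bdnf, a neurotrophin gene, had log2 fold changes of 0.95 at E9.75+12h (SE 0.18) and 1.06 at E9.25+24h (SE 0.13). Brip1, the highest, had 0.31 (SE 0.11) and 0.60 (SE 0.10). No test is given for either gene, since group centring keeps transgene differences within a label at E10.25+24h.

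Of 14 LIM homeobox relatives and LIM cofactors, 13 could be analysed: the homeobox genes Isl1, Isl2 and Lhx6, the binding proteins Ldb1 and Ldb2, the stabilising Ssbp2, Ssbp3 and Ssbp4, the competing Lmo1 to Lmo4, and Rlim, a ubiquitin ligase for LIM cofactors. At E9.75+12h, 1 of 13 fell and 0 rose, beside 20.0% of all genes called. An unadjusted p under 0.05 was found there for 3 of 13, as for 5216 of 14882 genes. At E9.25+24h, 1 fell and 1 rose, beside 15.6% of all genes called. There 4 of 13 had an unadjusted p under 0.05, as did 4829 of 14979 genes. The median log2 fold change of the 13 was 0.01 and -0.12 beside 0.01 and -0.01 for all genes. At E10.25+24h, 0 of 13 passed in edgeR or DESeq2, and 0 had an unadjusted p under 0.05. Without litter 1, 0 of 13 passed in edgeR and 2 (Lmo4 and Ssbp2) had an unadjusted p under 0.05, as did 2430 of 15195 genes.

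Lmo4, a LIM-only protein, was the gene that fell at both. At E9.75+12h it was at 293, 304 and 316 CPM in con against 161, 154 and 191 CPM in R2b, and it fell by 0.85 on the log2 scale (SE 0.10, FDR 6.24e-04). After E9.25+24h it stood at 190, 196, 199 and 151 CPM in con and at 106, 109, 123 and 95.4 CPM in R2b, and it fell by 0.76 (SE 0.10, FDR 0.0028). At E9.75+12h the groups of Lmo4 did not overlap, as in 4 of 13 relatives and cofactors and 38.9% of all genes. Nor did they at E9.25+24h, as in 2 of 13 and 22.4% of all genes. Lmo4 was lower in every litter of both exposures. At E10.25+24h it was at 140, 228, 170 and 201 CPM under the con label and at 187, 117, 155 and 125 CPM under the R2b label. The difference of -0.34 (SE 0.18) had an FDR of 0.9999, and that of -0.58 (SE 0.13) without litter 1 had an FDR of 0.13.

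Ssbp2, which encodes a single-stranded DNA-binding protein of the LIM complex, stood at E9.25+24h at 58.7, 61.3, 52.6 and 64.9 CPM in con, and at 74.6, 78.5, 74.1 and 77.3 CPM in R2b. It rose there by 0.36 (SE 0.07, FDR 0.0107, higher in 4 of 4 litters), but had an FDR of 0.0849 without litter 1 and 0.0735 without litter 2. At E9.75+12h the difference was 0.35 (SE 0.12, FDR 0.0523, higher in 3 of 3 litters). With litter as a block 6 of 13 passed at E9.25+24h, beside 40.6% of genes. Isl1, a LIM homeobox gene of otic sensory and neuronal precursors, fell by 0.78 in that fit (SE 0.10, FDR 2.25e-04) against -0.74 (SE 0.29, FDR 0.115) without the block. Lmo2 (-0.73, SE 0.24, FDR 0.0366), Lmo3 (0.60, SE 0.21, FDR 0.0396) and Rlim were added, and Lmo4 and Ssbp2 passed in both fits. Ldb1, the main binding partner of LIM homeodomain proteins, differed at E9.75+12h by 0.15 (SE 0.10, FDR 0.312) and at E9.25+24h by -0.07 (SE 0.05, FDR 0.419).

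**Figure D5:**
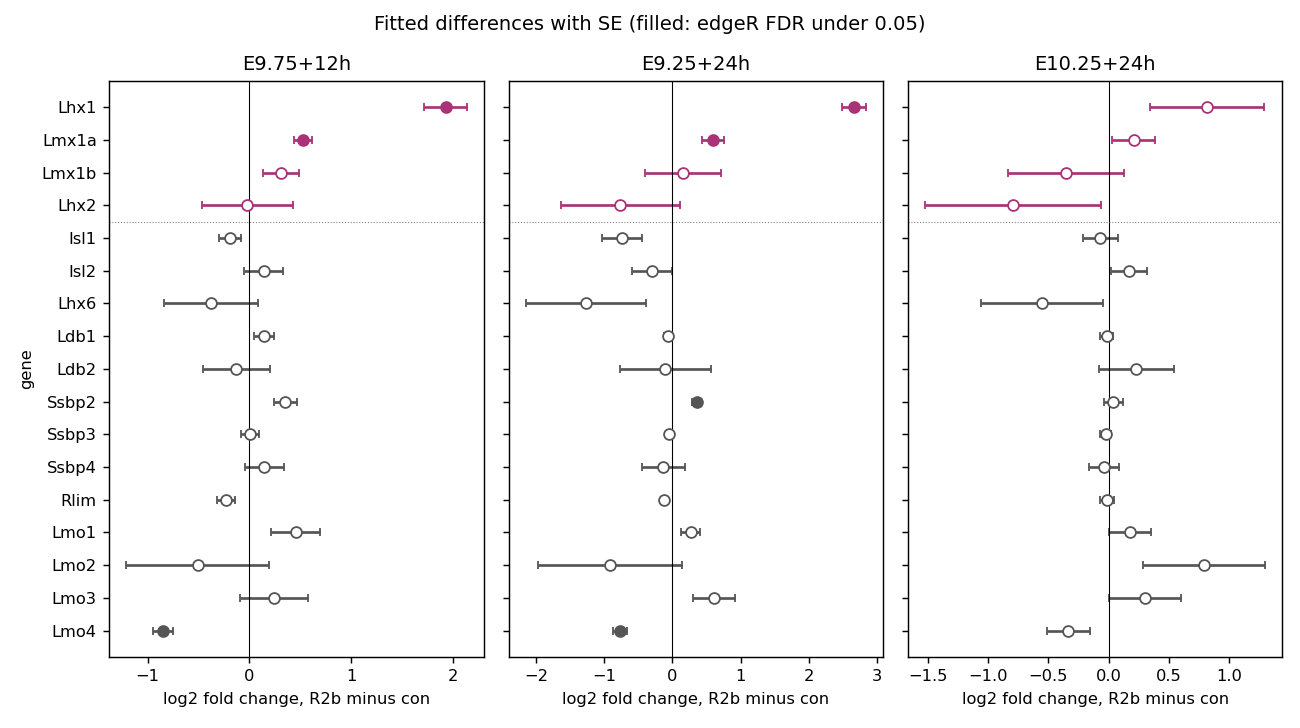
Fitted log2 fold changes of R2b against con with SE for the 4 measured members (above the dotted line) and 13 relatives and cofactors, by exposure. Filled points had an edgeR FDR under 0.05; Lmo4 is the relative that passed at both E9.75+12h (-0.85) and E9.25+24h (-0.76), and no gene passed at E10.25+24h, where the labels of litter 1 go against its transgene reads.

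The con pools, which the choice of the family did not use as a contrast, were compared between stages. The E10.25+24h pools, collected at E11.25, were set against the mean of the con pools collected at E10.25. None of the 4 members passed in edgeR (FDR 0.41 to 0.899) or DESeq2, and 0 had an unadjusted p under 0.05, whereas 42.7% of 15392 genes passed. The log2 differences were 0.27 (SE 0.25) for Lhx1, 0.03 (SE 0.14) for Lmx1a, 0.22 (SE 0.44) for Lmx1b and -0.54 (SE 0.72) for Lhx2. Without litters 1 and 3 of E10.25+24h that of Lhx1 was -0.13 (SE 0.24). Of the 13 relatives and cofactors, 6 were higher and 2 lower at the later stage, among them Isl1 (0.77, SE 0.13, FDR 7.83e-04), Lmo1 (0.98, SE 0.14, FDR 3.64e-04) and Lmo3 (0.99, SE 0.22, FDR 0.0046). Without litters 1 and 3 of E10.25+24h, 2 of 13 passed, Isl1 and Lmo1, and 3236 of 15436 genes passed against 6580 of 15392 with all libraries. The difference of Lmo3 was then 0.85 (SE 0.30, FDR 0.0698), that of Isl2 was 0.73 against 0.72 with all libraries, and that of Ssbp4 was 0.71 against 0.70. The sequencing request changed with the exposure, so stage and request cannot be told apart.

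The con pools of E9.25+24h and E9.75+12h share their end stage but not their request or length of exposure. None of the 4 members passed between them in edgeR or DESeq2 (FDR 0.167 to 0.9), and 0 had an unadjusted p under 0.05, beside 33.8% of genes that passed. Lhx1 differed by -0.59 (SE 0.31, FDR 0.167), and its FDR was 0.0467 when the library labelled con of litter 1 at E10.25+24h was left out of the shared fit. Of the 13 relatives and cofactors, 1 was higher (Lmo1) and 3 were lower (Ldb1, Lmo4 and Ssbp3) at E9.25+24h. Lmo4 differed by -0.78 (SE 0.14, FDR 0.00137), a gap of the same size as that between R2b and con within either exposure.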

How the data were processed

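RNA sequencing of pooled otocyst epithelium was analysed in 22 of 24 samples; 2 samples had no matching column, and 2 columns that matched no sample were not used. The authors deposited raw read counts per gene for 15736 Ensembl genes. Per the labels' protocols, libraries were stranded and poly(A)-selected. Novoalign 2.08.03 and mm10 are named in the submitters' processing notes; the counting tool and annotation are not given in the sources used here. Genes had at least 100 counts in all over these columns. Symbols and positions came from GENCODE M21 (GRCm38), matching 15522 genes, and promoter windows from RefSeq (GRCm38.p6), in which all 8 genes matched.

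Each exposure was fitted alone in edgeR 4.0.16 (R 4.3.3; filterByExpr, TMM, glmQLFit, glmQLFTest), with p-values adjusted over all genes tested and a threshold of 0.05. Con pools were compared in a fit of 3 group means. SEs were derived from the F statistic. Scripts were tested on simulated data. The labels pair con and R2b pools by female. Deviations from group means of same-litter pools for the exposure E9.75+12h had r of -0.309 to -0.171. For E9.25+24h the range was 0.52 to 0.833, and for E10.25+24h it was -0.174 to 0.439. Libraries of 1 group differed by more than counting error (chi-square per degree of freedom 5.48 to 44.2 over 30 pairs). Named genes are the members, relatives and cofactors that passed, Fgfr2 and Ighg1, and the 5 genes most and least like Lhx1 (the 5 highest also group-centred); neighbours and other named genes were added after values were seen. Members, lists and tests were chosen with earlier results of these data known. Alternatives were median-of-ratios size factors, other filters, DESeq2 1.42.0, a litter block, all libraries in one fit, and leaving out litters or libraries.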

Additional observations from a re-analysis of the deposited data

Results flagged for a closer look

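Single pools were set against the other 3 of their group by the gap to the nearest pool over the range of the group, for 10 genes in 40 groups of 4. A gap above 0.829 of the range was found in 3 groups, and chance gives about 1 in 20. Lhx1 was at 8.34 CPM in the E10.25+24h library labelled con of litter 1, against 3.55 to 3.91 CPM in the other libraries labelled con; that library also held 703 CPM of Ighg1 transgene reads. Ssbp2 was highest in the same library, at 81.7 CPM against 64.4 to 65.9 CPM. Lmx1a was at 254 CPM in the E9.25+24h con pool of litter 4, against 377 to 397 CPM in the other con pools; that pool had the highest summed mesenchyme markers (815 CPM), and their part in its low Lmx1a was not tested.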

How the results depend on the processing

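The alternatives covered the measured members, Lmo4, Ssbp2, Lhx1os and Rxrg between R2b and con, and the members alone between con pools. Among these, no value that passed its test in the reported fit changed sign. Values that did not pass did: Lhx2 at E9.75+12h ranged from -0.77 to 0.56 and was positive in 6 of 18 alternatives, Lhx2 at E9.25+24h from -1.83 to 0.22, Lmx1b at E9.25+24h from -0.45 to 0.74, and the stage difference of Lhx1 between con pools from -0.13 to 0.40. Lhx1 stayed between 1.76 and 2.09 (log2) at E9.75+12h in 18 alternatives and between 2.57 and 2.84 at E9.25+24h in 22. Lmx1a was 0.46 to 0.58 and 0.47 to 0.70. Leaving out litters or libraries, with and without the replicate block, left 1 to 2 members called for E9.75+12h and 1 to 3 for E9.25+24h. For E10.25+24h it left 0 to 2, and the count of 2 came from the block without replicate 1. It gave 1 to 2 called relatives and cofactors at E9.75+12h and 1 to 6 at E9.25+24h (with the replicate block, 4 without replicate 1, 6 without replicate 3 and 5 without replicate 4). Called relatives and cofactors at E9.75+12h were 2 with a mean CPM of at least 1, 2 with DESeq2 and 3 with all libraries in one fit, and 6 with the litter as a replicate block at E9.25+24h. Between the con pools collected at E10.25, 0 to 1 members were called with a library left out. For differences of effects between exposures, a member count of 0 became 1 with DESeq2 or without litter 2 of E10.25+24h (against E9.25+24h), and 1 without that litter against E9.75+12h. The cause of these changes was not tested. Under the block, 1775, 6086 and 0 genes were called at the 3 exposures, against 2973, 2335 and 0 without it. Lhx1os had 2 to 50 counts in the first 2 exposures and Lhx2 had 7 to 216 counts; the part of depth in their spread was not tested.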
